A study of Mus musculus with 15 samples.

Results

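Brown adipocytes were compared with white adipocytes on 7 of the 15 expression arrays of the series, chosen by their labels, over all 25206 probe sets of the deposited table. The white cells (WAT, 4 arrays) were the UCP1-negative adipocytes of inguinal fat, and the brown cells (BAT, 3 arrays) were the UCP1-positive adipocytes of brown fat. All of these mice were UCP1/Tomato reporter animals aged 8 to 10 weeks, were untreated (treatment "Control") and ate standard chow. Their cells were sorted by flow cytometry on a gate that the labels call UCP1(GFP), so whether the gate read GFP or Tomato is not settled here. For each array 2 ng of total RNA went into the WT Pico amplification and biotin labelling. The other 8 arrays carried RNA of UCP1-positive cells sorted out of inguinal fat from treated mice of the same kind. CL mice (3 arrays) received CL316243, which activates beta-adrenergic receptors, RS mice (2 arrays) roscovitine, which inhibits cyclin-dependent kinases, and RG mice (3 arrays) rosiglitazone, which activates PPARG. The BAT and WAT cells differ in depot and in the gate at once, so depot and gate cannot be told apart. Sex, array batches and the number of animals behind an array are not in the labels, and the spread that the p-values rest on may therefore be technical.

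Brown adipocytes burn fatty acids in densely packed mitochondria and release the energy as heat, because UCP1 lets protons back across the inner mitochondrial membrane without making ATP. White adipocytes store triglyceride in a large droplet and release hormones such as leptin and adiponectin. Brown fat and inguinal fat also arise from different regions of the embryo, and each holds blood vessels, nerves, stromal cells and resident immune cells beside its adipocytes.

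The values are log2 expression values from the authors' table, 1 for each probe set and array, and are listed below in the order WAT 1, 2, 3, 4 and then BAT 1, 3, 4. A probe set is called where limma's test, adjusted by the Benjamini-Hochberg method over all probe sets, gave an adjusted p below 0.05. Array medians lay between 3.33 and 3.47, but the values spread more widely over the WAT arrays (SD 1.91 to 2.00) than over the BAT arrays (SD 1.65 to 1.72). Across probe sets, pairs of WAT arrays had correlations of 0.959 to 0.988 and pairs of BAT arrays of 0.955 to 0.967, while pairs of a WAT with a BAT array had 0.864 to 0.933. WAT 4 stood apart from the other WAT arrays: its mean level of 24 genes shared by all adipocytes was -1.85 on the log2 scale relative to the mean of all 15 arrays, against -0.57 to -0.06 for the other WAT arrays, and 16 of the 21 macrophage markers were highest on WAT 4 among the WAT arrays, while 4 were lowest. Calls, and counts above 2, that turn on WAT 4 are therefore given without it as well.

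Promoters of genes at both ends of the comparison are shown first, as the sequence in which motifs of the nuclear receptors and of the basal transcription machinery were looked for. They are RefSeq promoters of GRCm38.p6, the 250 bases before the annotated start, read 5′ to 3′ on the strand of the gene. Capitals mark a match to AGGTCA, the core that PPARs and other nuclear receptors bind, to its other strand TGACCT, or to the TATA box TATAAA. Ucp1 lies at chr8:83290098-83290347 on the plus strand, Slc27a2 at chr2:126552774-126553023 on the plus strand, Cox7a1 at chr7:30183921-30184170 on the plus strand and Kng2 at chr16:23029102-23029351 on the minus strand, all upstream of genes that were higher in BAT. Cd209g lies at chr8:4134486-4134735 on the plus strand and Cd209f at chr8:4105765-4106014 on the minus strand, upstream of genes that were lower in BAT.
Ucp1: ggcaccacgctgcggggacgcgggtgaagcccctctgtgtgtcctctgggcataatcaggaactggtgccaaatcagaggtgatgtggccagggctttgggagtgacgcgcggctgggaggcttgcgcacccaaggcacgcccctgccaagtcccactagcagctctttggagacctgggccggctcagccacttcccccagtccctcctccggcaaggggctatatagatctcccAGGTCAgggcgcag
Slc27a2: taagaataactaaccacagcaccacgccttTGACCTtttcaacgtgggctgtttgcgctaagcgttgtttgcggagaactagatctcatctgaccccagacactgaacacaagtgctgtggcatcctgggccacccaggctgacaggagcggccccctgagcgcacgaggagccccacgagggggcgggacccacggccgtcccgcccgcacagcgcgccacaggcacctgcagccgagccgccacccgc
Cox7a1: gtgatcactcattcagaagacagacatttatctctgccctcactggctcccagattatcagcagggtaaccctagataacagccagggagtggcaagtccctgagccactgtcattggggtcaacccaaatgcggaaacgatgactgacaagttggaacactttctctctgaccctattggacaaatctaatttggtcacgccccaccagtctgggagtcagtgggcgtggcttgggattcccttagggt
Kng2: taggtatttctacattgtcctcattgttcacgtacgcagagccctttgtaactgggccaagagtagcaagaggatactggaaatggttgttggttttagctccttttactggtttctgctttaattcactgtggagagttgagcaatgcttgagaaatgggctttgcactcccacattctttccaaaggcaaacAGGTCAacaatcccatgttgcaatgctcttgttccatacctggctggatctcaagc
Cd209g: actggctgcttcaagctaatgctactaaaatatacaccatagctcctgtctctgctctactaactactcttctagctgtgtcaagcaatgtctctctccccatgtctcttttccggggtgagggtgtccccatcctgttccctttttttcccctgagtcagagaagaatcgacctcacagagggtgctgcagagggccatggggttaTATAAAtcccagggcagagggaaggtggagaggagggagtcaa
Cd209f: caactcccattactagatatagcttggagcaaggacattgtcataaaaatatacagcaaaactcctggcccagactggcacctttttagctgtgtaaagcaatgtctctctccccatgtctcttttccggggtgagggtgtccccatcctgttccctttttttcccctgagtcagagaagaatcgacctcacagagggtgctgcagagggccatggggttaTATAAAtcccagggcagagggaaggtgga
The match began 14 bases before the start in Ucp1 and 56 bases before it in Kng2, and 220 bases before it, on the other strand, in Slc27a2. The Cox7a1 window held none of the 5 motifs searched. Windows of Acot11, higher in BAT, and of Plac8 and Tlr8, lower in BAT, were searched too but are not printed. The 2 windows of Acot11 and the 2 of Plac8 held none of the 5 motifs. The Tlr8 window held TATAAA on both strands. The windows of Cd209g and Cd209f, which encode related C-type lectins of macrophages, share an unbroken run of 154 bases with the TATA box inside it. Both strands were searched for 5 motifs. They were the nuclear receptor core and the TATA box, TCAAGGTCA (the site of the oestrogen-related receptors, which contains the core), TGACGTCA (the cAMP response element) and GAGGAAGT (bound by PU.1, a factor of myeloid cells). The core was present in 13 of the 40 genes at least 4-fold higher in BAT that have a promoter in the table (32.5%), in 44 of 259 genes at least 4-fold lower (17.0%) and in 2529 of all 17452 genes with a probe set and a promoter (14.5%). Ucp1, on which the cells were sorted, is among the 13. GAGGAAGT was present in 2.5%, 5.41% and 2.69% of the same sets, and the TATA box in 12.5%, 20.1% and 13.0%. TCAAGGTCA was present in none of the 40 higher genes, in 0.386% of the lower and in 0.338% of all, and TGACGTCA in none, 1.16% and 2.23%. These shares describe letters in a short window and were not tested.

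The comparison called 11096 of 25206 probe sets (44%), of which 6950 were higher in BAT (27.6%) and 4146 lower (16.4%). The median of all probe sets was 0.18 log2 higher in BAT, and the 1354 olfactory and vomeronasal receptors of the array, which serve here as genes not looked for in fat, were higher in BAT by a median of 0.63, with 776 called higher and 6 called lower. The 95th percentile of those receptors, averaged over the arrays of a group, was taken as the dim level, 3.64 in BAT and 3.08 in WAT. Of the 6950 probe sets called higher, 5147 were dim in both groups, and of the 4146 called lower, 42 were. Among the 14176 probe sets above the dim level in BAT or WAT, 1803 were called higher (12.7%) and 4104 lower (29%), with a median of -0.19. List counts below are read against both pairs of shares, the second pair where few members are dim in both groups. The share of calls that were higher was 62.6% as deposited, 51.5% after centring the arrays on their medians and 53.2% after quantile normalization. On the deposited values large differences were mostly decreases, with 385 probe sets called and at least 4-fold lower against 64 at least 4-fold higher. At 16-fold, 7 were lower and 5 were higher, Ucp1 among the 5. Against the BAT dim level, Tlr8 and Cd209g, both among the 7, were at least 5.99-fold and 14.7-fold lower. Sizes were not counted on another scale. After quantile normalization, probe sets above the dim level were called higher in 2401 cases and lower in 2505, whatever the size.

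The genes that rose most in BAT included Elovl3, Cox7a1, Cidea and Slc27a2, which act in fatty acid handling and respiration. Ucp1, on which the cells were sorted, read 4.03, 4.47, 4.39 and 3.20 in WAT and 11.18, 11.22 and 10.22 in BAT. The gate was set on Ucp1, and in the difference of 6.85 gate and depot cannot be told apart. Ucp1 is counted among the probe sets called higher, but its p-value is not read as a result. Elovl3, which elongates very long saturated fatty acids, read 3.02, 3.54, 3.67 and 2.55 in WAT and 9.47, 9.42 and 8.43 in BAT, a 60.2-fold difference (log2 5.91, SE 0.35, limma adjusted p = 1.8e-07). Cox7a1, the muscle and brown fat form of a cytochrome c oxidase subunit, read 5.48, 5.22, 5.33 and 4.65 against 10.26, 10.48 and 9.31 (28.8-fold, SE 0.31 log2, adjusted p = 2.5e-07). No WAT array reached any BAT array in these 3 genes, which was a condition for naming the largest differences. Cidea, a lipid droplet protein of brown adipocytes, read 6.60, 6.25, 6.15 and 4.52 in WAT and 10.57, 10.63 and 10.41 in BAT (25.2-fold, SE 0.41 log2). The low WAT 4 value widens that difference, and the 3 BAT arrays lie close together.

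Slc27a2, which imports very long-chain fatty acids and couples them to coenzyme A, was dim in WAT at 2.03, 2.57, 1.95 and 2.23 and read 7.35, 7.44 and 6.89 in BAT. Its BAT level is at least 17.7-fold above the WAT dim level (adjusted p = 4.1e-07). Kng2, a kininogen from which bradykinin is cut, was likewise dim in WAT at 2.62, 2.04, 2.30 and 2.16 and read 6.18, 5.93 and 5.54 in BAT, at least 6.99-fold higher. Kng1, its close relative, differed by 0.35 and was dim in both groups. Slc27a2 and Kng2 were thus dim in WAT and measured on every BAT array. Serpina1b, one of several near-identical antitrypsin genes whose signals may mix, was the most variable of the set, with 6.47, 5.49 and 4.05 in BAT over a dim WAT (at least 4.78-fold, SE 0.76 log2, adjusted p = 0.0026).

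The other 8 named increases lay between 2.87 and 3.89 log2. Groups without overlap were a condition of the choice. Otop1, a proton channel, differed by 3.89, and Acot11, a thioesterase of brown fat, by 3.84. Phospho1, a phosphatase that acts on phosphocholine and phosphoethanolamine, read 3.82, 4.55, 4.25 and 4.75 in WAT and 8.11, 7.91 and 7.75 in BAT, a difference of 3.58. It was the one named increase of these in which WAT 4 was the highest WAT array. Pank1, which starts the synthesis of coenzyme A, differed by 3.47, and Coq8a, a kinase-like protein needed for coenzyme Q, by 3.43. Ppp1r3b, which brings protein phosphatase to glycogen, differed by 3.03, Letmd1, a mitochondrial membrane protein, by 3.00, and Ppara, the nuclear receptor that drives fatty acid oxidation genes, by 2.87. Adjusted p-values of the 14 increases other than Ucp1 were 0.0026 or lower, and each kept its call under all 15 alternatives tried.

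**Figure D1:**
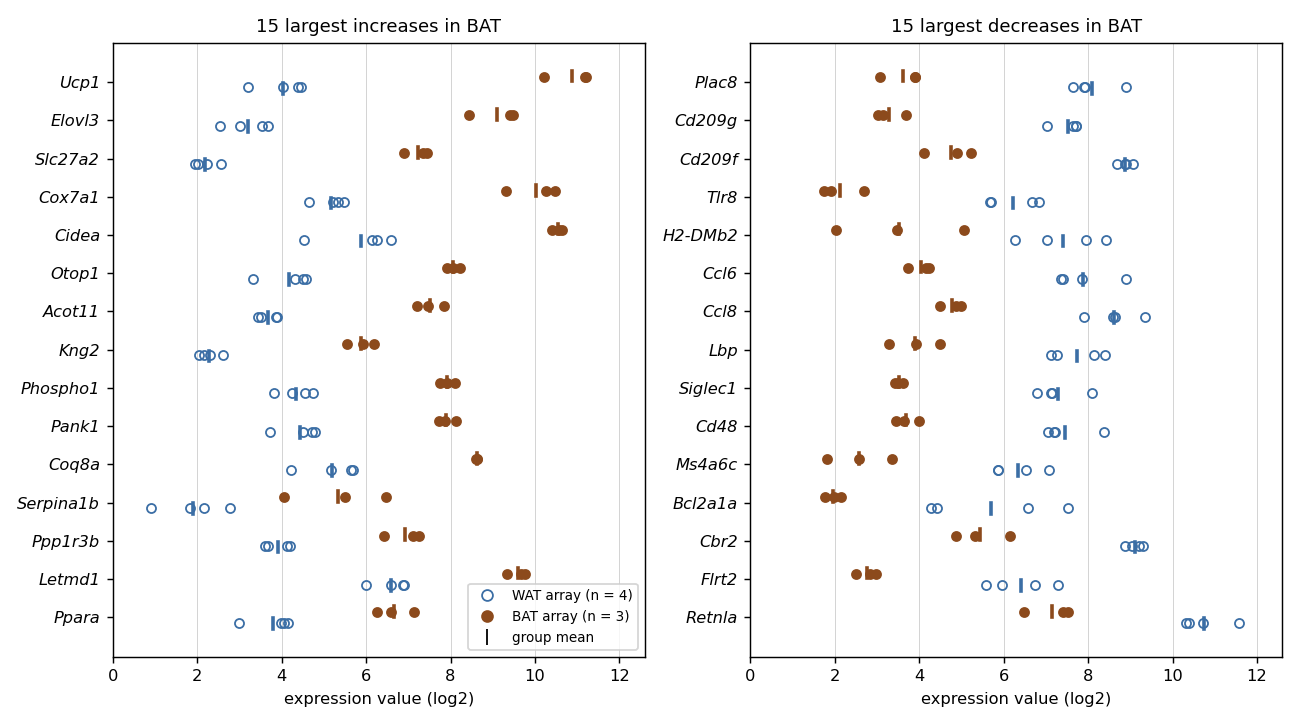
Log2 value of each of the 15 largest increases and 15 largest decreases (rows) on each WAT array (open blue circles) and BAT array (filled brown circles), with vertical bars at the group means. Rows were chosen among called genes whose groups do not overlap. The widest BAT spreads are those of Serpina1b and H2-DMb2, and the widest WAT spread is that of Bcl2a1a.

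In the list of thermogenic genes, leaving out Ucp1, 13 of 14 measured members were higher and none lower, beside 27.6% and 16.4% of all probe sets, with a median difference of 2.94. Dio2, the deiodinase that activates thyroid hormone, was dim in WAT at 2.71 to 3.03 and read 5.19, 4.73 and 3.84 in BAT (at least 2.84-fold, adjusted p = 0.0017). Kcnk3, a potassium channel, read 6.30, 5.77, 6.34 and 4.69 in WAT and 8.18, 7.92 and 7.92 in BAT, a difference of 2.23. Esrra was the member that was not called, at 5.53, 5.57, 5.53 and 5.28 in WAT and 6.40, 6.02 and 5.45 in BAT (0.48, adjusted p = 0.087). Its BAT 4 value lies inside the WAT range, and Esrra was called without BAT 4 (0.73, adjusted p = 0.0157) and after quantile normalization. The count was 13 without WAT 4 as well.

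Nuclear genes of the respiratory chain were higher nearly throughout. Of 71 measured subunits of complexes I to IV and of ATP synthase, 61 were higher, none was lower and 60 did not overlap, beside 47.1% of all probe sets that did not overlap. Complex I had 31 of 33 members higher (median 1.07), complexes II and III had all 13 measured members higher (median 1.32), complex IV had 10 of 15 (median 0.77) and ATP synthase 7 of 10 (median 0.94). In complex I, Ndufab1, which also carries acyl chains for lipoic acid, differed most, at 6.27, 6.32, 6.48 and 5.65 in WAT and 8.20, 8.36 and 8.09 in BAT (log2 2.04, SE 0.21, adjusted p = 1.7e-05). Sdhd, the membrane anchor of succinate dehydrogenase, read 6.57, 6.46, 6.66 and 6.08 against 8.26, 8.60 and 7.68 (1.74). Atp5k of ATP synthase read 7.59, 6.81, 7.60 and 6.58 against 8.75, 8.72 and 8.77 (1.60). Within each of these genes every BAT array lay above every WAT array.

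The tricarboxylic acid cycle had 20 of 22 members higher and none lower, with a median of 1.30. Idh3a, the catalytic subunit of the NAD-dependent isocitrate dehydrogenase, differed by 2.25, from 7.33, 6.99, 7.32 and 5.85 in WAT to 9.17, 9.23 and 8.98 in BAT, and Suclg1, of succinyl-CoA ligase, by 1.80. Coenzyme Q synthesis had 9 of 12 members higher and 1 lower (median 1.19), led by Coq8a and followed by Coq7 (1.54). Cristae and cardiolipin genes had 9 of 16 higher (median 0.78), among them Crls1, the cardiolipin synthase (1.50), and Chchd10, a small protein of the intermembrane space (2.51). Mitochondrial ribosomal proteins had 23 of 32 higher and none lower, with a smaller median of 0.67. Cytosolic ribosomal proteins had 5 of 26 higher (19.2%) and 7 lower (26.9%), beside 27.6% and 16.4% of all probe sets. They had 3 higher without WAT 4, and their median of -0.01 changed sign with the scaling. Upkeep and import of mitochondrial DNA and proteins had 7 of 19 higher (36.8%, beside 27.6% of all probe sets) and 2 lower (10.5%, beside 16.4%). After quantile normalization 11 were higher. Fusion and fission genes had 6 of 12 higher (50%) and 1 lower (8.33%), with Mtfp1, a protein that promotes fission, at 2.19. Genes encoded in mitochondrial DNA have no named probe set here.

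Mitochondrial beta-oxidation had 17 of 19 members higher and 1 lower, with a median of 1.46. Slc25a20, which carries acylcarnitines into the matrix, read 6.76, 6.42, 6.59 and 5.97 in WAT and 9.19, 9.18 and 8.91 in BAT (log2 2.66, SE 0.20, adjusted p = 1.2e-06). Acaa2, the thiolase of the last step, read 7.99, 7.98, 8.06 and 7.58 against 10.56, 10.63 and 10.22 (2.57). Hadha, of the trifunctional protein, differed by 2.09 and Acadvl, the very long-chain dehydrogenase, by 1.91. The member that was lower was Cpt1a, the liver form of the carnitine transferase of the outer membrane, at 6.50, 7.26, 6.94 and 7.66 in WAT and 6.17, 6.48 and 5.94 in BAT (-0.89, adjusted p = 0.015), and it lost the call without BAT 4 (-0.77, adjusted p = 0.063) and after quantile normalization (-0.61, adjusted p = 0.11). Cpt1b, the muscle form, has no named probe set. Cpt2, its partner in the inner membrane, was higher by 1.67. Peroxisomal oxidation had 11 of 20 members higher and none lower (median 0.57), among them Abcd3, a peroxisomal fatty acid transporter (1.79). Without WAT 4, 8 of these were called higher and 1 lower.

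Uptake and activation of fatty acids had 7 of 14 members higher and 1 lower, and 4 higher without BAT 1. Acsl5, an acyl-CoA synthetase, read 5.48, 5.66, 5.67 and 5.75 in WAT and 8.65, 8.48 and 8.07 in BAT (2.76, SE 0.17, adjusted p = 2.5e-07), whereas its relative Acsl4 fell by 0.96. Elongases and thioesterases had 12 of 19 higher and 1 lower, but 7 of the 19 were dim in both groups. Branched-chain amino acid breakdown had 7 of 20 higher (35%, beside 27.6% of all probe sets) and none lower. It had 4 higher without BAT 3 and 12 after quantile normalization. Mitochondrial carriers had 12 of 25 higher and 3 lower, including Slc25a51, the carrier of NAD (1.64). The pyruvate gate and glyceroneogenesis had 9 of 13 higher and 1 lower. In that list 2 pyruvate dehydrogenase kinases differed in opposite directions. Pdk4 read 7.60, 7.25, 7.54 and 5.59 in WAT and 9.66, 9.60 and 10.05 in BAT (2.78), while Pdk3 read 5.43, 5.07, 5.50 and 5.64 against 3.48, 3.74 and 3.71 (-1.77). Neither overlapped between the groups.

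Glycogen genes had 10 of 16 members higher and none lower (median 0.68), and 7 without WAT 4. Gys2, the liver form of glycogen synthase, read 6.55, 5.91, 6.60 and 4.13 in WAT and 8.04, 7.92 and 7.83 in BAT (2.13, SE 0.44, adjusted p = 0.0018), or 1.58 without WAT 4, and Gbe1, the branching enzyme, was higher by 1.46. In glycolysis 5 of 13 were higher (38.5%) and 2 lower (15.4%), beside 27.6% and 16.4% of all probe sets. There Pfkl, a phosphofructokinase, differed by 2.10 and Slc2a1, the basal glucose transporter, by -1.20. De novo lipogenesis had 9 of 16 higher and none lower (median 1.10). Acacb, the acetyl-CoA carboxylase at the mitochondrial surface, read 7.16, 6.31, 7.10 and 5.14 in WAT and 8.87, 8.69 and 8.93 in BAT (2.40, adjusted p = 7.8e-04). The lipogenesis count depends on single arrays, with 5 higher without WAT 4 or without WAT 2 and 4 without BAT 4. In this list WAT 1 and WAT 3 lay above WAT 2 and WAT 4, with mean levels 0.07, -0.76, -0.05 and -1.79 relative to all 15 arrays. Triglyceride synthesis had 5 of 15 higher (33.3%) and 2 lower (13.3%), and 3 higher without WAT 2, WAT 4, BAT 1 or BAT 3. All probe sets had 27.6% higher and 16.4% lower, and those above the dim level 12.7% and 29%. Lipolysis and droplet genes had 7 of 17 higher (41.2%) and 1 lower (5.88%), and 11 higher without WAT 3.

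**Figure D2:**
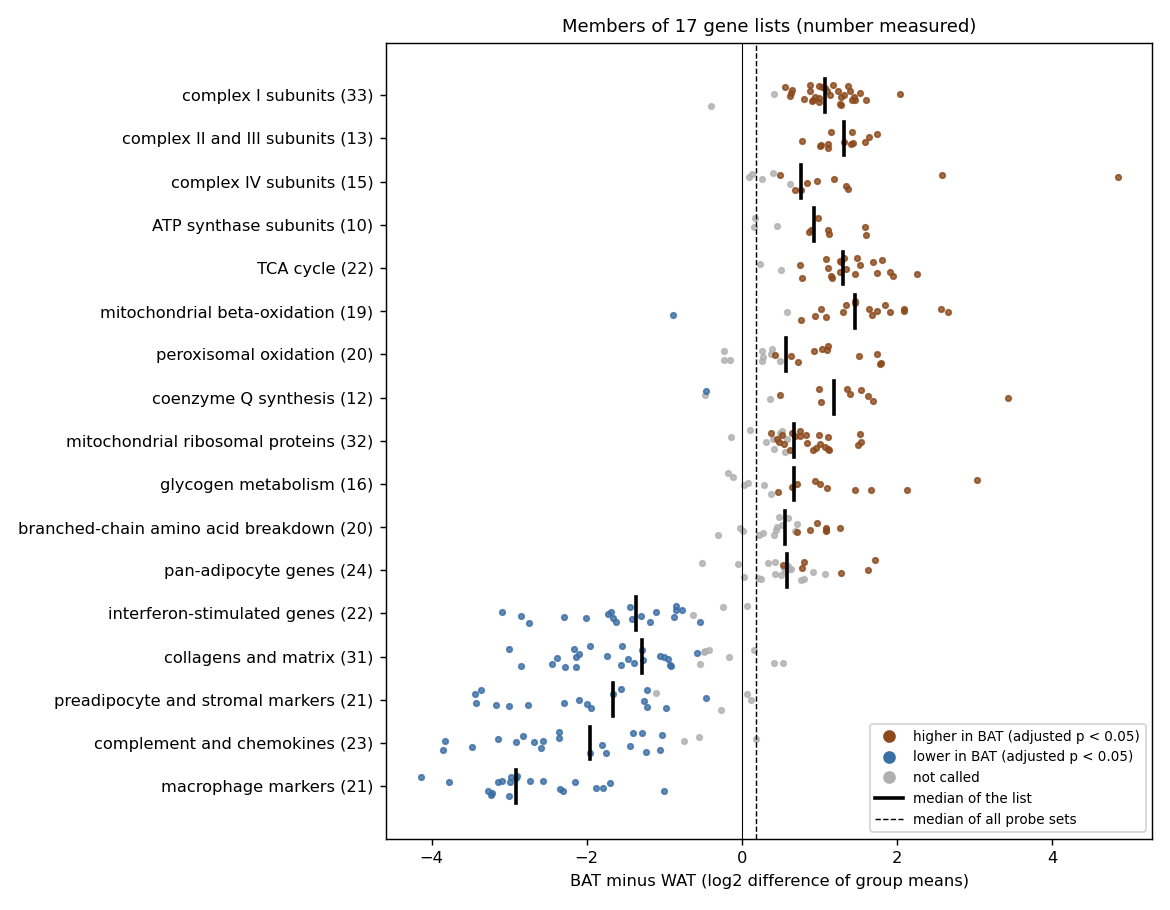
Difference between BAT and WAT (log2, horizontal axis) for each measured member of 17 lists (rows, number measured in brackets), coloured by the call, with a black bar at the median of the list and a dashed line at the median of all probe sets (0.18). Members of the oxidative lists lie mostly right of the dashed line, and all 21 macrophage markers lie left of it.

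For 21 pairs of related genes the log2 value of the first minus the second was taken on each array, which shows unequal change and not which copy is more abundant. The ratio did not overlap between the groups in 12 pairs (57.1%). Single probe sets did not overlap in 47.1%, which is an unlike measure, and no share over other gene pairs was taken. With 3 arrays against 4, the smallest two-sided exact permutation p is 0.0571 (0.0999 after Benjamini-Hochberg adjustment over the 21 pairs), so no pair can pass 0.05. The log2 ratio of Cox7a1 to Cox7a2, the form found in most tissues, was 4.00 higher in BAT, and Cox7a2 itself was higher by 0.84. The ratio of Cox8b to Cox8a, another pair of complex IV subunits, was 2.08 higher. Of the lipid pairs, Slc27a2, dim in WAT, to Slc27a1 was at least 3.57 higher, Cidea to Cidec, the droplet protein of white fat, 4.23 and Elovl3 to Elovl6 4.01. Ppara to Pparg, the regulator of all adipocytes, was 2.34 higher, Idh3a to Idh2 1.51, Ldhb to Ldha 1.38 and Gys2 to Gys1 1.19. Acaa1b to Acaa1a, near-identical thiolases whose signals may mix, was 1.36 higher, and Ckmt2, dim in both groups, to Ckb 1.46. The ratio of Cox6b2 to Cox6b1 went the other way, at -1.25. The ratio of Ppargc1b to Ppargc1a differed by 0.06, with overlapping arrays. The ratios of Cox4i2 to Cox4i1 and of Cox6a2 to Cox6a1, other tissue forms of complex IV subunits, overlapped as well, at -0.36 and -0.84.

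**Figure D3:**
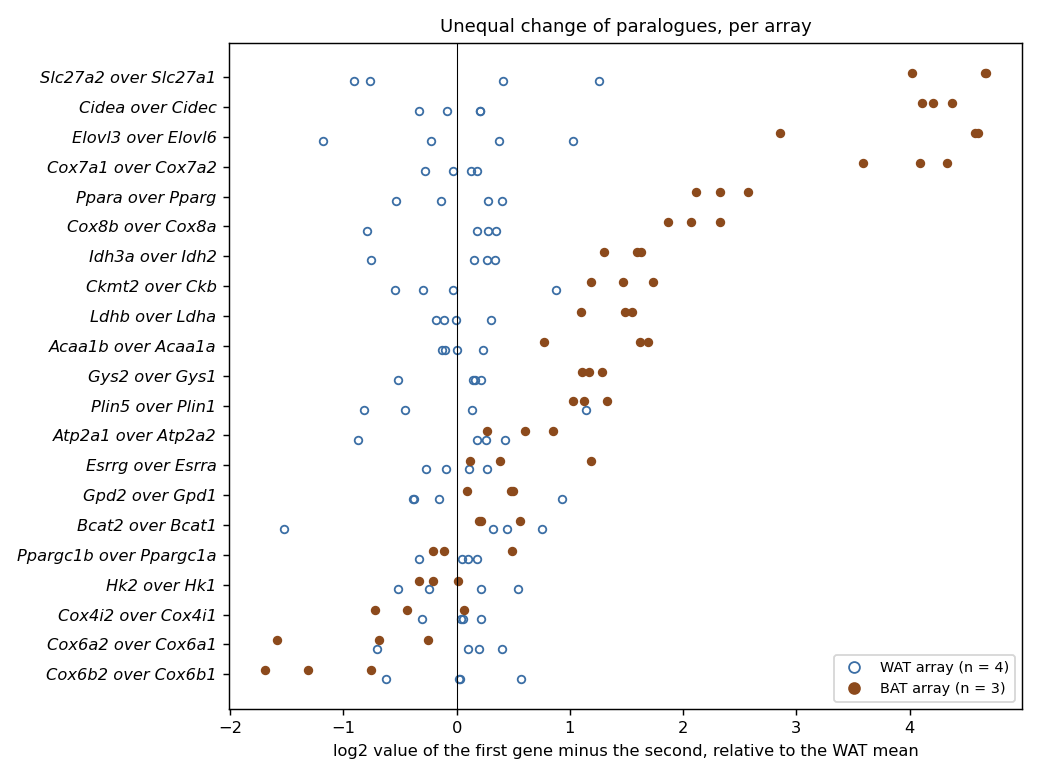
Log2 value of the first gene minus the second for 21 pairs (rows) on each array, relative to the WAT mean of that pair, with open blue circles for WAT and filled brown circles for BAT. The 11 pairs at the top and Cox6b2 over Cox6b1 at the bottom do not overlap between the groups.

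Of 19 PPARs, PGC-1 coactivators, oestrogen-related receptors and cofactors, 8 were higher (42.1%) and 5 lower (26.3%), and 3 lower without BAT 1. All probe sets had 27.6% higher and 16.4% lower, and those above the dim level 12.7% and 29%. Ppargc1a, the coactivator of mitochondrial biogenesis, read 4.52, 4.30, 4.41 and 3.86 in WAT and 6.62, 6.44 and 5.92 in BAT (2.05, SE 0.31, adjusted p = 2.0e-04). Ppargc1b read 4.15, 4.36, 4.55 and 3.87 against 6.47, 6.19 and 6.37 (2.11). Pprc1, the third member of that family, was lower instead, at 5.97, 6.25, 6.09 and 6.96 against 4.84, 4.31 and 4.57 (-1.74, adjusted p = 7.7e-05). None of the 3 overlapped. Ppard fell by 1.06 and Esrrg rose by 1.04. In adrenergic and cAMP signalling, 9 of 23 members were higher (39.1%) and 2 lower (8.7%), with a median that changed sign with the scaling. Adcy3, an adenylyl cyclase, read 5.92, 6.15, 5.73 and 6.23 in WAT and 8.72, 8.64 and 7.96 in BAT (2.43), and the phosphodiesterases Pde4d and Pde4a, which break cAMP down, were higher by 1.32 and 1.39. Adrb3, the receptor through which noradrenaline acts on adipocytes, has no named probe set. Of 19 creatine and calcium cycling genes, 10 were higher (52.6%) and 2 lower (10.5%), beside 27.6% and 16.4% of all probe sets. Of these 19, 9 were dim in both groups, so 3 were called higher once dim probe sets were left out. Phospho1 and Alpl, a phosphatase on the cell surface (1.83), led that list.

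Of 25 brown fate regulators 5 were higher (20%) and 6 lower (24%), beside 27.6% and 16.4% of all probe sets. Probe sets above the dim level had 12.7% and 29%, and 3 regulators were higher without WAT 2 or without WAT 4. Prdm16, which holds cells on the brown path, read 4.93, 4.84, 5.15 and 4.55 in WAT and 5.15, 5.33 and 5.62 in BAT. The groups touched at 5.15, the difference was 0.50 (adjusted p = 0.045), and it lost the call without WAT 1, WAT 2, WAT 4, BAT 3 or BAT 4 (adjusted p 0.0635 to 0.172) and after centring on array medians (0.40, adjusted p = 0.11). Ebf2, a partner of Prdm16, overlapped and was not called (-0.32, adjusted p = 0.27). Ebf3 was higher by 0.68 without overlap. Zic1, a marker of interscapular brown fat, read 2.05, 2.00, 2.35 and 2.14 in WAT and 3.91, 3.12 and 2.82 in BAT (1.15, adjusted p = 7.9e-04), yet its group means were dim in both. Lhx8, another marker of brown fat, was not called (0.21, adjusted p = 0.56). Plac8, which promotes brown fat formation and is also abundant in myeloid cells, was the first of the named decreases, at 7.63, 7.89, 7.93 and 8.90 in WAT and 3.06, 3.89 and 3.90 in BAT. Its BAT mean is dim, so it is at least 21.9-fold lower (adjusted p = 3.4e-06). Tbx15, a factor of limb and trunk patterning, fell by 1.88. Irf4, a factor of fasting lipolysis and of immune cells, fell by 1.06.

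Hox genes keep a record of position along the body axis. Of 38 measured Hox genes 10 were higher (26.3%, beside 27.6% of all probe sets) and 2 lower, but 22 were dim in both groups, and 5 were higher after quantile normalization or without BAT 1. Of the 16 above the dim level in a group, 5 were higher and 2 lower, beside 12.7% and 29% of all probe sets above it. Hoxc8 and Hoxc10, of the posterior part of the cluster, were the members that were lower. Hoxc10 read 4.78, 4.71, 4.80 and 4.87 in WAT and 4.19, 3.81 and 3.85 in BAT (-0.84, SE 0.14, adjusted p = 4.7e-04), and Hoxc8 read 6.10, 5.98, 6.27 and 5.38 against 4.97, 4.93 and 3.79 (-1.37). Hoxc4 and Hoxa5, nearer the head end, were higher, but so were the posterior genes Hoxc12, Hoxd12 and Hoxd13 (1.11, 0.53 and 0.65), which were dim in both groups. Hoxa5 was dim in WAT at 3.05, 2.49, 2.92 and 2.51 and read 3.98, 4.65 and 4.02 in BAT (at least 2.20-fold), and Hoxc4 read 3.95, 4.32, 4.23 and 3.99 against 5.13, 4.40 and 5.06 (0.74). Hoxc10, Hoxc8, Hoxa5 and Hoxc4 each separated the groups. Hoxc9, often used as a marker of white and beige fat, was dim in both groups and not called (0.31, adjusted p = 0.11).

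The adipocyte hormone genes Lep, Adipoq and Retn overlapped between the groups. Lep, which encodes leptin, read 7.29, 6.62, 7.17 and 4.84 in WAT and 6.49, 6.54 and 5.68 in BAT (-0.24, adjusted p = 0.68). WAT 4 lay below every BAT array, and without it Lep fell by 0.79 (adjusted p = 0.043). Adiponectin (Adipoq) differed by 0.21 and resistin (Retn) by 0.03, both with overlapping arrays and adjusted p-values of 0.72 and 0.96. Adipoq read 7.85 and Retn 8.25 on WAT 4, below every other array, and without WAT 4 they differed by -0.38 and -0.53 (adjusted p = 0.19 and 0.091). In the list of 16 white adipokines 7 were lower and 1 higher (median -0.45). The lower ones were Il6, Tnf, Ccl2, Metrnl, Lcn2, Nnat and Rarres2, of which Il6, Tnf and Ccl2 are inflammatory signals that immune and stromal cells also make. Il6, interleukin 6, read 6.62, 6.59, 6.73 and 6.67 in WAT and 3.67, 4.06 and 3.90 in BAT (-2.78, SE 0.15, adjusted p = 9.5e-08), with very close arrays in each group. Nnat, an imprinted gene of white adipocytes, read 6.80, 6.24, 6.97 and 5.40 against 4.26, 4.67 and 5.03 (-1.70). Genes shared by all adipocytes, none of them dim in both groups, had 6 of 24 members higher (25%) and none lower (median 0.58). Of all probe sets 27.6% were called higher, and of those above the dim level 12.7%. The adipocyte list had 10 higher without WAT 3, and 4 higher and 1 lower without WAT 4. Fabp4, the abundant fatty acid binding protein, was higher by 0.80 and Slc2a4, the insulin-dependent glucose transporter, by 1.63.

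Macrophage markers were lower throughout. All 21 measured members were lower and none overlapped between the groups, beside 16.4% of all probe sets called lower, with a median of -2.91. Cd209f read 8.90, 8.87, 9.07 and 8.68 in WAT and 4.12, 5.22 and 4.89 in BAT (17.6-fold lower, SE 0.30 log2, adjusted p = 6.3e-07). Cd209g read 7.70, 7.63, 7.71 and 7.02 against 3.02, 3.68 and 3.13, which is dim in BAT and at least 14.7-fold lower. C1qa, a subunit of complement C1q, read 8.96, 8.97, 9.24 and 9.45 against 5.95, 6.36 and 5.71 (-3.15). Csf1r, the receptor that macrophages need to survive, read 7.30, 8.47, 7.23 and 8.75 against 4.70, 5.51 and 5.41 (-2.73). Fewer macrophages and less RNA per macrophage cannot be told apart in bulk samples, and the BAT cells came from a UCP1-positive gate while the WAT cells came from a UCP1-negative one. Against the inguinal cells of a UCP1-positive gate, 1 of the 21 markers was lower in BAT (median -0.19), beside 3.19% of all probe sets. No macrophage marker was dim in both groups, and the mean of the 21 lay 1.59, 1.79, 1.78 and 2.29 above the mean of all 15 arrays in WAT and at -1.03, -0.68 and -0.87 relative to it in BAT. All 21 were lower without WAT 4 too.

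Among the other named decreases, Tlr8, a receptor for single-stranded RNA, was dim in BAT at 1.74, 2.69 and 1.90 after 5.70, 6.66, 5.68 and 6.84 in WAT (at least 5.99-fold lower). Siglec1, a sialic acid receptor of macrophages, was at least 12.6-fold lower, and H2-DMb2, of the MHC class II pathway, at least 13.7-fold lower with BAT arrays as far apart as 2.03 and 5.05. The chemokines Ccl6 and Ccl8 differed by -3.85 and -3.83, and Lbp, which binds lipopolysaccharide, by -3.83. Cd48, an adhesion molecule of leukocytes, differed by -3.77 and Cbr2, a carbonyl reductase, by -3.66. Ms4a6c, of a membrane protein family of leukocytes, was at least 6.50-fold lower, and Flrt2, a cell surface protein that guides cells and axons, at least 6.78-fold lower. Retnla, a secreted product of alternatively activated macrophages, read 10.31, 10.71, 10.38 and 11.58 in WAT and 7.52, 7.40 and 6.49 in BAT (-3.61), so it remained well above the dim level in BAT. Bcl2a1a, one of several near-identical genes, varied most in WAT at 4.41, 6.58, 4.27 and 7.53. Of 23 complement and chemokine genes 20 were lower (median -1.96), and of 13 MHC class II and antigen presentation genes 8 were lower and 1 higher, with 5 lower without BAT 4.

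Interferon-stimulated genes had 19 of 22 members lower and none higher, with a median of -1.36. Oasl2 read 6.70, 6.64, 7.11 and 7.02 in WAT and 3.53, 3.97 and 4.55 in BAT (-2.85, adjusted p = 1.4e-05), and Irf7, the factor that amplifies interferon, read 7.49, 6.88, 8.17 and 7.95 against 5.01, 5.08 and 5.91 (-2.29). BAT 4 was the highest BAT array in both. Over the list it lay at 0.10 relative to all 15 arrays, between BAT 1 and BAT 3 at -0.87 and -0.76 and the WAT arrays at 0.53 to 1.19. The macrophage score of BAT 4 did not stand apart in the same way, at -0.87 between -1.03 and -0.68. After quantile normalization 14 of the 22 were lower. Whether the macrophage signal has a part in this list was not tested.

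Of 21 preadipocyte and stromal markers 17 were lower and none higher (median -1.66), and of 31 collagens and matrix genes 23 were lower and none higher (median -1.29). Pi16, a marker of early adipose progenitors, read 7.35, 8.75, 7.53 and 9.02 in WAT and 4.58, 5.27 and 4.56 in BAT (-3.36, SE 0.43, adjusted p = 7.8e-05). Dpt, dermatopontin, read 11.04, 11.31, 11.02 and 11.41 against 9.54, 9.65 and 9.42 (-1.66). Fbln1, a fibulin of the matrix, fell by 3.00, and Sfrp4, an inhibitor of Wnt ligands that is dim in BAT, was at least 9.67-fold lower. WAT 2 and WAT 4 held the higher stromal levels in Pi16, and every WAT array lay above every BAT array. BMP and TGF-beta signalling had 16 of 30 members lower and 2 higher, the 2 being dim in both groups. Bmp2 was at least 3.41-fold lower, from 5.03, 5.52, 5.62 and 5.46 to a dim 3.08, 2.08 and 2.41, and Tgfb3 read 6.13, 6.18, 6.26 and 6.19 against 3.59, 4.50 and 4.82 (-1.89). Wnt modulators had 6 of 25 lower (24%, beside 16.4% of all probe sets and 29% of those above the dim level) and none higher. Stromal and macrophage scores move with these lists, and their part in them was not tested.

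Markers of other cell types did not all move that way. Endothelial markers had 2 of 22 lower (9.09%) and 1 higher (4.55%). All probe sets had 16.4% lower and 27.6% higher, and those above the dim level 29% and 12.7%. Pecam1, an adhesion molecule of endothelium, read 8.60, 9.32, 9.08 and 7.52 in WAT and 7.92, 8.81 and 8.89 in BAT, and Cdh5, its cadherin, 9.03, 9.63, 9.65 and 8.20 against 8.39, 9.41 and 9.35, with overlap in both and adjusted p-values of 0.91 and 0.92. The members that were lower were Lyve1, of lymphatic endothelium and of some resident macrophages (-2.98), and Plvap, of fenestrated endothelium. Plvap lost its call without WAT 1, WAT 2, WAT 3, BAT 1 or BAT 4 (adjusted p 0.0629 to 0.119). T and NK cell markers had 2 of 18 lower and 2 higher (11.1% each), beside 16.4% and 27.6% of all probe sets. Without WAT 4 they had 1 lower and 3 higher. B cell markers had 2 of 11 lower (18.2%). Cd3e overlapped between the groups, and WAT 4 held the highest T cell level. Mast cell markers had 6 of 12 lower (50%) and 1 higher (8.33%). Cpa3, a mast cell protease, read 6.20, 8.25, 6.96 and 8.47 in WAT and 3.63, 4.29 and 3.81 in BAT (-3.56), so WAT 2 and WAT 4 were high.

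Epithelial keratins had the opposite order within WAT. Krt18, a keratin of glandular epithelium, read 6.84, 4.59, 6.44 and 3.78 in WAT and 2.90, 3.27 and 3.55 in BAT, where it was dim. Krt19 read 6.75, 4.65, 7.02 and 4.02 against 2.79, 3.07 and 3.91. WAT 1 and WAT 3 held these keratins and the higher lipogenic levels, while WAT 2 and WAT 4 held the higher mast cell and stromal levels. Of 17 mammary and skin epithelial markers 6 were lower (35.3%, beside 16.4% of all probe sets) and none higher. In this list 8 were dim in both groups, and Epcam was among the dim ones (0.05, adjusted p = 0.89). Skeletal muscle markers, checked because brown fat lies on muscle, had 9 of 20 higher (45%, beside 27.6% of all probe sets) and none lower. However, 12 were dim in both groups, and 2 were called once dim probe sets were left out. Acta1, the muscle actin, overlapped at 5.02, 5.26, 5.39 and 4.16 in WAT and 4.77, 4.58 and 6.11 in BAT. BAT 4 was its highest array. Schwann cell and neuronal markers had 2 of 13 higher (15.4%, beside 27.6% of all probe sets). Among them was S100b, which read 5.44, 5.83 and 4.04 in BAT over a dim WAT (at least 4.07-fold) and is also secreted by brown adipocytes.

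**Figure D4:**
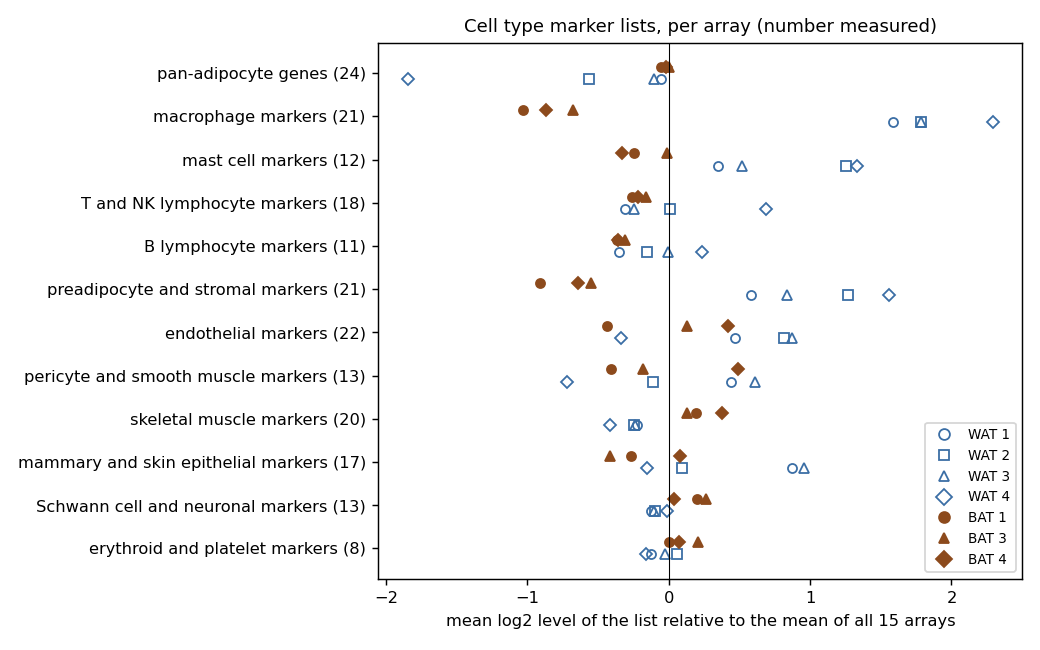
Mean log2 level of 12 marker lists (rows, number measured in brackets) on each WAT array (open blue) and BAT array (filled brown), relative to the mean of all 15 arrays, with 1 symbol shape for each replicate number. Macrophage, stromal and mast cell scores separate the groups, and so do skeletal muscle and Schwann cell scores, which are higher in BAT. Endothelial and lymphocyte scores overlap, and WAT 4 (open diamond) is lowest for the adipocyte genes at -1.85.

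The same BAT arrays were set against the UCP1-positive cells of inguinal fat, as the mean of the CL, RS and RG groups. That comparison shares the BAT arrays, and all of its inguinal mice were treated, so depot and treatment cannot be told apart. It called 2176 probe sets (8.63%), 1371 higher (5.44%) and 805 lower (3.19%) in BAT. The count was 1117 without BAT 1 and 1209 without BAT 4. Elovl3 was 5.91 higher than in WAT and 2.60 higher than in the inguinal UCP1-positive cells (adjusted p = 4.3e-04), whose group means were 8.91 in CL, 5.19 in RS and 5.42 in RG. Kng2, at least 6.99-fold higher than in WAT, was dim in all 3 inguinal UCP1-positive groups, with means of 2.84, 2.72 and 2.52, and was at least 5.19-fold higher in BAT than there (adjusted p = 4.7e-07). Slc27a2, at least 17.7-fold above WAT, was 2.91 log2 higher than in the inguinal UCP1-positive cells, and Acot11 was higher by 3.84 and 2.63. Of the 14 thermogenic genes 9 were higher against the inguinal UCP1-positive cells, and 1 macrophage marker was lower, as given above. These counts were 6 to 9 and 0 to 2 when 1 of the arrays was left out. Complex I had 5 of 33 higher there, 1 without BAT 1 or BAT 3 and 3 without CL 3 or RG 2, and the stromal list 1 of 21 lower. H2-DMb2, dim in BAT, was at least 13.7-fold lower than in WAT and at least 13.9-fold lower than in the inguinal UCP1-positive cells. It was the only 1 of 13 MHC class II and antigen presentation genes called lower against those inguinal cells. H2-DMa, of the same pathway, was not called there (-0.68, limma adjusted p = 0.30). Hoxc8 differed by -1.37 from WAT and by -2.06 from the inguinal UCP1-positive cells (adjusted p = 9.4e-04), and Hoxc10 by -0.84 and -1.01. Hoxa5, dim in WAT and in the 3 inguinal groups, was at least 2.20-fold and at least 1.64-fold higher. White adipokines were lower in 6 of 16 members there. Lep was one of them (-1.59, adjusted p = 0.026), but it lost the call without BAT 1 or BAT 4 (adjusted p = 0.0599 and 0.122).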

How the data were processed

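Sorted adipocyte RNA was measured on Affymetrix arrays. The deposited values are log2 expression values that the authors made by RMA, with affy 1.36.1 and Affymetrix Expression Console named in the submitters' processing notes; how the steps were combined is not given in the sources used here. Probe sets were named by Entrez number through the platform table and RefSeq, which gave 23185 of the 25206 a symbol of 1 gene and left 2021 without a name. Each array was assigned to its group by its title. BAT minus WAT was fitted with limma 3.58.1 in R 4.3.3 on all 15 arrays with 5 group means and 10 residual degrees of freedom, and two-sided p-values were adjusted by the Benjamini-Hochberg method over all 25206 probe sets. BAT minus the mean of CL, RS and RG came from the same fit. On simulated BAT minus WAT data over 25206 probe sets, this recovered 67% of changes of 1 log2 unit and 96% of changes of 2. Of the calls made there 5.78% were false. The simulation changed 200 probe sets under independent noise, without a deviant array, so these rates need not hold for the real arrays. The number of arrays limits the precision.

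The members and gene lists were chosen with earlier results of these data known. Named genes were the 15 largest increases and 15 largest decreases among called probe sets whose groups do not overlap. Predicted genes, chemoreceptors, small RNAs and antigen receptor segments were left out of that choice. The smallest p-values of each list, called Hox genes, members of the paralogue pairs and a set of markers were named as well. Genes named outside this rule were chosen after their values were seen. A group is called dim where its mean lies at or under the dim level, and a fold against a dim group is then given as at least the bright mean over the dim level (or over the dim mean, if higher). The level of a list on an array is the mean of its members relative to their means over the 15 arrays. The replicate numbers of the titles were checked as pairing by the correlation of deviations from group means between BAT and WAT arrays. It was -0.19, -0.17 and -0.20 for arrays of the same number and -0.05 to 0.15 for arrays of other numbers. The main fit did not use the numbers as pairs, and the CL, RS and RG numbers were not checked.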

Additional observations from a re-analysis of the deposited data

Results flagged for a closer look

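In 9 results 1 of the 4 WAT arrays lay far from the other 3 by Dixon's test, among 62 list levels and 94 genes examined, and chance gives this in about 1 in 20 groups. The array was WAT 4 in 8 of them.

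The mean level of the thermogenic genes, relative to all 15 arrays, was -2.14 on WAT 4 against -1.41 to -1.32 on the other WAT arrays. WAT 4 was also low for fatty acid uptake and activation (-0.68 against -0.30 to -0.28), for adrenergic and cAMP signalling (-0.34 against -0.10 to -0.08) and for skeletal muscle markers (-0.42 against -0.25 to -0.22). Among single genes, WAT 4 was low for Ppara, the nuclear receptor of fatty acid oxidation, at 2.98 against 3.98 to 4.16. It was low for the macrophage lectin Cd209g at 7.02 against 7.63 to 7.71 and for the oestrogen-related receptor Esrra at 5.28 against 5.53 to 5.57. For Cd48, of leukocytes, WAT 4 was high at 8.38 against 7.04 to 7.22. The remaining result was Ckb, a creatine kinase, which was low on WAT 3 at 4.45 against 5.05 to 5.14 on the other WAT arrays.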

How the results depend on the processing

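The 29 largest named differences other than Ucp1 kept their call under each of the 15 alternatives. Of 27 named genes that were not called, 10 changed sign under an alternative, Adipoq and Retn among them. The number of probe sets called, 11096, was 7286 with the replicate number as a block, 6220 after quantile normalization, 5666 without probe sets dim in both groups and 3248 with a difference of at least 1 log2 unit also required. Those higher in BAT, 6950, were 4319, 3306, 1721 and 1473 in the same order, and those lower, 4146, were 1775 with the size rule. After quantile normalization, probe sets above the dim level were called higher in 2401 cases and lower in 2505. Leaving out each WAT or BAT array in turn gave 8585 to 10173 called, 5300 to 6266 higher and 3285 to 3907 lower. The 2176 probe sets called against inguinal UCP1-positive cells were 317 with the replicate block, and 1117 (without BAT 1) to 2356 (without RS 4) when 1 array was left out, alternatives chosen after seeing the data. Deviations of same-numbered BAT and WAT arrays correlated at -0.19, -0.17 and -0.20, below the -0.05 to 0.15 of arrays of other numbers. The CL, RS and RG numbers were not checked, so whether the numbers mark a pairing or a batch is not settled. With the block, 268 of 296 named genes kept their side of the threshold and 28 lost their call. The median of 44 of the 62 lists kept its sign under every alternative; the other 18 were mostly lists with medians near 0, among them the adrenergic, brown fate, clock, insulin, endothelial and lymphocyte lists. Why these values moved was not tested.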

Other observations

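Clock and insulin signalling genes had some members lower in BAT, beside 16.4% of all probe sets called lower and 27.6% called higher. Among probe sets above the dim level, 29% were called lower and 12.7% higher. Of 18 circadian clock genes 4 were lower (22.2%) and none higher, so the clock share lay under that 29%. Per2, a repressor of the clock, read 4.97, 4.53, 5.10 and 5.15 in WAT and 3.75, 4.09 and 4.11 in BAT (-0.95, limma adjusted p = 0.0012). Ciart, another repressor, differed by -1.11, Per1 by -0.87 and Rora, a nuclear receptor that activates Arntl, by -0.69. The time of day of collection is not in the labels. Of 19 insulin signalling genes 8 were lower (42.1%) and 1 higher, and 5 lower after quantile normalization. Among them were Ptpn1, the phosphatase that turns off the insulin receptor (-1.33), and Grb10, an adaptor that inhibits the receptor (-1.32). Igf1, the insulin-like growth factor, read 7.57, 7.21, 7.57 and 7.30 in WAT and 6.29, 6.43 and 6.36 in BAT. The groups did not overlap in Per2 or Igf1.

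Of 20 imprinted growth genes 8 were lower (40%) and 2 higher (10%), beside 16.4% and 27.6% of all probe sets. In this list 5 were lower without BAT 3 and 4 after quantile normalization. Plagl1, a zinc finger factor that regulates other imprinted genes, read 6.59, 6.53, 6.36 and 6.54 in WAT and 4.57, 4.57 and 4.65 in BAT (-1.91, adjusted p = 6.1e-06). Its arrays were close together in both groups, WAT 4 included. Of 30 cell cycle genes 9 were lower (30%) and 2 higher (6.67%), and 17 lower after centring on array medians. Probe sets above the dim level were called lower in 29%, and all probe sets in 16.4%. Mcm3, of the helicase that opens DNA for replication, read 4.68, 4.67, 5.09 and 5.20 against 3.36, 3.64 and 3.97 (-1.25), and Ccnd1, cyclin D1, differed by -0.90. Of 19 antioxidant genes 6 were higher (31.6%) and 6 lower (31.6%), and 3 lower without BAT 1. Of all probe sets 27.6% were called higher, and of those above the dim level 12.7%. There Txn2, the mitochondrial thioredoxin, differed by 1.04 and Hmox1, a haem oxygenase abundant in macrophages, by -1.98. Macrophage markers were lower in BAT as well, and their part in the Hmox1 value was not tested.

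Of 14 markers described as selective for beige cells 2 were higher (14.3%) and 4 lower (28.6%) in BAT than in WAT. Those shares lay near the 12.7% higher and 29% lower of probe sets above the dim level. P2rx5, an ATP-gated channel of thermogenic cells, read 5.57, 5.29, 5.55 and 4.19 in WAT and 7.68, 7.82 and 7.47 in BAT (2.51). Slc36a2, an amino acid transporter, was higher by 1.51. Epsti1, also induced by interferon, was dim in BAT and at least 3.61-fold lower, and Sp100, of nuclear bodies, differed by -1.85. Alas2, the haem synthase step best known from red cells, read 4.35, 4.04, 4.50 and 3.17 in WAT and 5.84, 5.84 and 6.48 in BAT (2.04). In haem and iron-sulfur cluster synthesis 4 of 14 were higher (28.6%) and none lower, and 2 were higher without WAT 2, WAT 4, BAT 1 or BAT 3. Of all probe sets 27.6% were called higher, and of those above the dim level 12.7%.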
